A study of Arabidopsis thaliana with 24 samples.

Results

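Gene expression was compared between whole seedlings of Arabidopsis thaliana carrying the exa1-1 mutation and wild-type seedlings of the accession Col-0, both kept without stress at 23 °C. The comparison used 6 of the 24 libraries of the series, picked by their labels as the 23 °C libraries of the 2 genotypes, with 3 libraries each. Seedlings were 9 days old, grew on 1/2 MS, a standard plant salt medium, with 1% sucrose, and were held at 23 °C for 60 min; about 50 mg of tissue was extracted per sample. Wild-type and exa1-1 seedlings at 39 °C for 60 min, 3 libraries each, belong to the same heat set, and those on MS medium, also 3 libraries each, are the unstressed controls of the salt set. The mutant is represented by 1 allele, and a further allele or a complemented line was not analysed here. The series text gives 3 independent biological replicates per group without saying how cultures were kept apart. The spread between libraries may therefore be partly technical. The 23 °C p-values rest on a spread estimated over the 12 libraries of the heat set, those at 39 °C included. With this fit 1598 genes passed the threshold given below, and 3216 did with the 6 compared libraries fitted alone.

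EXA1 encodes a protein with a GYF domain, a fold that binds proline-rich peptides, and it is known from work on potexvirus infection, on cap-binding translation initiation factors and on the repression of immune receptor translation. Plant immunity is commonly divided into a salicylic acid branch, marked by pathogenesis-related genes, and a jasmonate and ethylene branch, marked by the PDF1 defensins. Camalexin, an indole compound made from tryptophan, is the main antimicrobial phytoalexin of Arabidopsis. In whole seedlings a lower level of a transcript can mean less RNA per cell or fewer cells of the type that makes it, and these cannot be told apart here.

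The 6 libraries held 18344637 to 21019628 reads assigned to genes, and 23629 to 23964 genes had a read in each. Plastid genes took 0.027 to 0.034% of reads. Pearson correlations of expression across genes, which are not independent replicates, were 0.9906 to 0.9937 within the wild type, 0.993 to 0.9933 within the mutant and 0.984 to 0.9871 between genotypes. The first principal component held 49.7% of the variance and separated the genotypes. Wild-type replicate 1 stood apart from the other wild-type libraries on the next component, which held 16.5%. Levels are given below as CPM, read counts scaled to library size with TMM factors. Differences are log2 fold changes of exa1-1 over the wild type, with standard errors, tested by the quasi-likelihood method of edgeR. Adjusted p-values follow Benjamini and Hochberg over all genes tested, and a gene is called below 0.05.

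Of 21196 genes tested, 1598 (7.54%) passed the threshold, 695 higher (3.28%) and 903 lower (4.26%) in exa1-1. The falls were the larger changes. The median log2 fold change was 0.40 among genes that rose and -0.65 among genes that fell, and 261 genes fell at least 2-fold while 45 rose at least 2-fold. For 1582 of the 1598 genes all mutant libraries lay on 1 side of all wild-type libraries, which held for 32.3% of all genes tested. The called share was 7.12 to 7.93% on each of the 5 chromosomes. Genes annotated as other noncoding RNA had 14 higher and 2 lower of 128 tested, long noncoding RNA genes 18 higher and 9 lower of 561, and protein-coding genes 662 higher and 889 lower of 20386. Leaving out a library lowered the number called to 808 or 959 without wild-type replicate 2 or 3, and to 759, 777 or 1052 without mutant replicate 1, 2 or 3. Without wild-type replicate 1 it was 1319. These repeats were followed for 158 called genes: EXA1, the largest rises and falls with a symbol, called list members, and a set of loci without a symbol. Some of these loci, such as AT1G67105 and AT3G28510, which kept their calls, are not described below. Some called genes named below, such as AT1G26410 and MLO7, were not in the set. Of the 158 genes, 81 kept their call whichever of the 6 libraries was left out and 77 lost it in at least 1 repeat.

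The mutated gene itself, EXA1 (AT5G42950, chr5:17224270-17231384 on the plus strand in TAIR10.1), was at 152, 128 and 123 CPM in the wild type and at 16.9, 16.2 and 18.1 CPM in exa1-1. Every mutant library lay far below every wild-type library. The log2 fold change was -2.98 ± 0.11 (edgeR adjusted p = 5.57e-13), and reads over the gene remained in the mutant, with 311, 320 and 342 counted. The related GYF-domain genes AT1G24300 and AT1G27430 were not called, with log2 fold changes of -0.02 and -0.03.

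The gene with the largest called difference in either direction was not EXA1 but AT1G64795, a locus without a symbol that RefSeq describes as an uncharacterized protein, which was named after its values were seen. It had 2, 3 and 9 reads in the wild type and 2825, 3205 and 2825 reads in exa1-1. The mutant level, 149 to 162 CPM, was above that of EXA1 in the wild type, while the wild-type level was below 1 CPM. The log2 fold change was 9.36 ± 0.23 (edgeR adjusted p = 2.76e-15), with 10.27 on MS medium and 8.02 at 39 °C. Across the whole series it was the only gene with at most 10 reads in all 12 wild-type libraries and at least 20 in all 12 mutant libraries, and no gene showed the reverse. The locus is 270 bases long, at chr1:24082579-24082848 on the plus strand in TAIR10.1, and lies within ILA, an immunity-related HEAT-repeat gene on the opposite strand. Its RefSeq sequence is shown because it is the transcript that most separates the genotypes; the capitals mark the 142 bases that fall in an exon of 1 of the 3 ILA transcripts.
AT1G64795: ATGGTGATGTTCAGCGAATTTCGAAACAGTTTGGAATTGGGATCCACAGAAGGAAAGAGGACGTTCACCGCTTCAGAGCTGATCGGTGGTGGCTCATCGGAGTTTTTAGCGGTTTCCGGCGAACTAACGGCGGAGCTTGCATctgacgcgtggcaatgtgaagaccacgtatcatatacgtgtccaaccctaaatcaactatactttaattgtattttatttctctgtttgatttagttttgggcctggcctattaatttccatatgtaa
ILA had 1850, 1838 and 2087 reads in the wild type and 1722, 1945 and 1553 in exa1-1, ranges that overlapped. The strand setting of the read counting is not given in the sources used here, so reads of the overlapping bases could not be assigned to a strand.

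**Figure D1:**
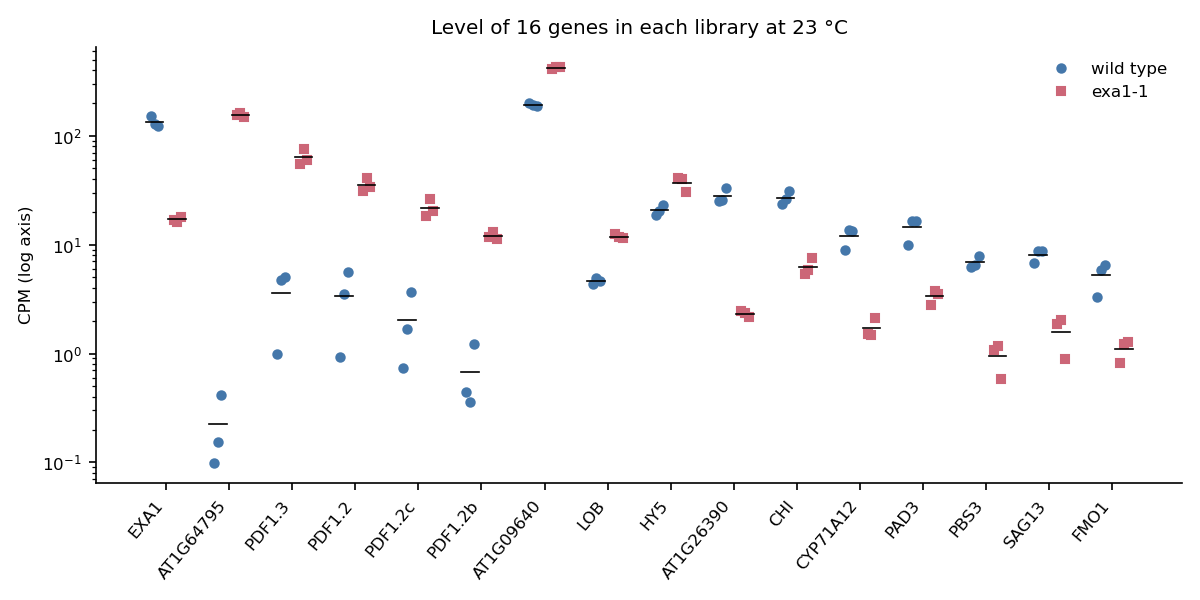
CPM of 16 genes in each library at 23 °C on a log axis, with wild-type libraries as blue circles, exa1-1 libraries as red squares and group means as black lines. The groups do not overlap for any gene shown, which for all of them but EXA1 was a condition of their choice. AT1G64795 goes from below 1 CPM to between 149 and 162 CPM, and EXA1 from between 123 and 152 CPM to between 16.2 and 18.1 CPM.

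Among genes of the translation machinery, the clearest difference was at AT1G09640, a gamma chain of elongation factor EF1B, which reloads the factor that brings aminoacyl-tRNA to the ribosome. It had no symbol and was named after its values were seen. It was at 198, 190 and 188 CPM in the wild type and 408, 424 and 428 CPM in exa1-1. The groups were tight and far apart. The log2 fold change was 1.13 ± 0.07 (edgeR adjusted p = 1.64e-09), with 1.08 on MS medium and 0.97 at 39 °C. The other annotated gamma chain gene, AT1G57720, which shares 87.7% of its aligned coding bases, was at 369, 385 and 366 CPM in the wild type and 422, 411 and 420 CPM in exa1-1 and was not called (log2 fold change 0.16 ± 0.07, adjusted p = 0.17). Levels of near-identical genes carry the uncertainty of how shared reads were counted.

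Of the 15 EXA1, GYF and cap-binding genes tested, 2 rose and 1, EXA1, fell (20% called against 7.54% of all genes). The median log2 fold change was 0.10, against 0.002 over all genes. PAB2, a poly(A)-binding protein that couples the mRNA tail to initiation, was at 676, 706 and 672 CPM in the wild type and 837, 877 and 783 CPM in exa1-1 (log2 fold change 0.28 ± 0.08, edgeR adjusted p = 0.024). PAB8, of the same family, rose by 0.25 ± 0.07. The initiation factors were not called in this fit. EIF(ISO)4E, which binds the cap, had a log2 fold change of 0.10. EIF4G, the scaffold of the initiation complex, was at 0.11 and EIFISO4G1, its plant-specific relative, at 0.19. For 7 of the 15 list genes all mutant libraries lay above all wild-type libraries, against 16.8% of all genes tested. The PAB2 call held only without mutant replicate 3, and the PAB8 call was lost with any library left out. Of the list, 4 members rose with the 6 libraries alone, with all 24 and with the 12 unstressed libraries. These fits called 3216, 3924 and 5219 genes in all, against 1598 here. DESeq2 gave 2 rises in the list and limma-trend 1. Of 20 cytosolic ribosomal protein genes, 3 rose and none fell (15% called against 7.54% of all genes), and the median was 0.17. A positive log2 fold change was found for 18 of the 20, and for 10697 of all 21196 genes tested. For 14 of the 20 all mutant libraries lay above all wild-type libraries, against 16.8% of all genes tested. RPS5A rose by 0.41 ± 0.07, from 401, 404 and 416 CPM to 540, 550 and 528 CPM. RPS6B rose by 0.31 ± 0.07 and ARP1 by 0.28 ± 0.07, both of them structural proteins of the ribosome. ARP1 was lost in 5 of 6 repeats with a library left out.

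The PDF1 defensins, small secreted antifungal proteins, gave the largest rises among called genes with a symbol. PDF1.3 was at 0.98, 4.70 and 5.04 CPM in the wild type and 55.0, 75.0 and 60.4 CPM in exa1-1. PDF1.2 was at 0.93, 3.53 and 5.55 CPM against 30.9, 41.0 and 34.1 CPM. PDF1.2c was at 0.74, 1.69 and 3.69 CPM against 18.16, 26.3 and 20.5 CPM. In each of these the lowest mutant library was at least several times the highest wild-type library, and wild-type replicate 1 was the lowest of the 3 wild-type libraries. PDF1.2b was at 0.44, 0.36 and 1.21 CPM in the wild type, from only 9, 7 and 26 reads, with replicate 2 the lowest. In exa1-1 it was at 11.85, 13.17 and 11.25 CPM. The log2 fold changes were 4.15 ± 0.37 for PDF1.3, 4.13 ± 0.28 for PDF1.2b, 3.39 ± 0.36 for PDF1.2 and 3.39 ± 0.37 for PDF1.2c, and the calls held with any library left out. Their coding sequences, 243 bases each, share 91.4 to 94.7% of bases, so reads may have been divided among them. PDF1.4, a family member outside this group, did not pass the threshold, with a log2 fold change of -0.91 (edgeR adjusted p = 0.085), and PDF1.5 was at 0.03.

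The 250 bases upstream of the 4 genes are shown because the genes rose together, from the RefSeq genome TAIR10.1, read on the gene's strand, with the GCC box GCCGCC, a motif bound by ethylene response factors, in capitals.
PDF1.2, chr5:17907639-17907888, minus strand: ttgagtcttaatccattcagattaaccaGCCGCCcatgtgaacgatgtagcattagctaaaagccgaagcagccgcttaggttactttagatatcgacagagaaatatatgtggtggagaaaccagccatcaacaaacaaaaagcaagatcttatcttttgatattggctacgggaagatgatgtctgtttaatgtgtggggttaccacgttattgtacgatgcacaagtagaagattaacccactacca
PDF1.2b, chr2:11088873-11089122, plus strand: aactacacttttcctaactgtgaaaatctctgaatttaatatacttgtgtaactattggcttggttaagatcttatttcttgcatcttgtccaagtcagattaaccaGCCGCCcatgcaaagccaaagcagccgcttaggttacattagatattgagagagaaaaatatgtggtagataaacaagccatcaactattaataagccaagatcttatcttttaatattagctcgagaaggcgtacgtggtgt
PDF1.2c, chr5:17909508-17909757, minus strand: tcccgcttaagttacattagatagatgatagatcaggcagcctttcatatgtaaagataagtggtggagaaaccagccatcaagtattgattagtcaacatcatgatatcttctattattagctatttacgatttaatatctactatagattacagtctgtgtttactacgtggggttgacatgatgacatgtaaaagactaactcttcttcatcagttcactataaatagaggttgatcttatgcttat
PDF1.3, chr2:11087030-11087279, plus strand: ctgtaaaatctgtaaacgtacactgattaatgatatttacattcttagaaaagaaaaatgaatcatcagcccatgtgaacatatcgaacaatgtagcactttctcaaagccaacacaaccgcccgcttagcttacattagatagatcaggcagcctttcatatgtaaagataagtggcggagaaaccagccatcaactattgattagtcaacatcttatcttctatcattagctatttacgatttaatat
Searched on both strands, GCCGCC occurred in PDF1.2, 222 bases before the annotated start, and in PDF1.2b, 143 bases before it, and not in this window of PDF1.2c or PDF1.3. Of all 27413 protein-coding promoters of this length 1.87% held it, as did 3.03% of those of genes that rose and 1.46% of those of genes that fell.

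Of 24 members tested of the defensin and ethylene list, 5 rose and 7 fell (50% called against 7.54% of all genes). The median log2 fold change was -0.11. PR4, a chitin-binding defence protein, was the remaining rise, at 127, 176 and 206 CPM in the wild type and 288, 325 and 288 CPM in exa1-1 (log2 fold change 0.82 ± 0.16, edgeR adjusted p = 0.0059). The transcription factors EIN3 and EIL1, which carry the ethylene signal in the nucleus, fell by 0.39 ± 0.08 and 0.32 ± 0.08, and the receptor ERS1 fell by 0.39 ± 0.08. ERF-1 fell by 0.58 ± 0.16 and ERF2 by 0.95 ± 0.25, both GCC-box binding factors. ORA59, the ethylene and jasmonate factor best known for driving PDF1.2, was at 4.86 ± 0.13 CPM (SD, n = 3) in the wild type and 5.01 ± 1.08 CPM (SD, n = 3) in exa1-1 and was not called. Without wild-type replicate 2 or mutant replicate 1, 2 of the 7 falls remained, while the 5 rises were called with any library left out.

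Of 26 jasmonate genes tested, 1 rose and 4 fell (19.2% called against 7.54% of all genes), with a median of -0.24. The rise was CORI3, a cystine lyase induced by jasmonate, at 3.87, 6.85 and 6.35 CPM in the wild type and 12.5, 17.3 and 11.5 CPM in exa1-1 (log2 fold change 1.28 ± 0.22, edgeR adjusted p = 0.002). TAT3, a tyrosine aminotransferase also induced by jasmonate, fell by 3.44 ± 0.56, from 1.91, 4.14 and 8.31 CPM to 0.38, 0.61 and 0.32 CPM. JAZ1, a repressor of the pathway, fell by 0.72 ± 0.16, and LOX3 and AOC3, enzymes of jasmonate synthesis, by 0.81 ± 0.23 and 0.73 ± 0.19. The transcription factor MYC2 and the receptor COI1 were not called, with log2 fold changes of -0.04 and 0.07. Leaving out mutant replicate 1 left TAT3 as the 1 fall called.

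In the salicylic acid list, 7 of 18 genes tested fell and none rose (38.9% called against 7.54% of all genes). A negative log2 fold change was found for 17. DMR6 and DLO1, hydroxylases that break salicylic acid down, fell by 1.06 ± 0.11 and 1.93 ± 0.39. DMR6 was at 36.8, 41.4 and 48.1 CPM in the wild type and 21.1, 19.0 and 20.6 CPM in exa1-1. WRKY70, a transcription factor of the branch, was at 25.6, 42.4 and 46.1 CPM against 13.5, 25.4 and 12.5 CPM, and WRKY54 at 4.90, 7.47 and 9.24 CPM against 3.26, 3.63 and 2.11 CPM. In both the groups were separated by a small gap, with wild-type replicate 1 nearest the mutant. WRKY70 fell by 1.15 ± 0.29 and lost its call in 4 of 6 repeats with a library left out, and WRKY54 fell by 1.26 ± 0.29. Among synthesis genes ICS1, the isochorismate synthase, had a log2 fold change of -0.27 (edgeR adjusted p = 0.36) and EDS5, the isochorismate exporter, -0.11, while PBS3, which conjugates isochorismate to glutamate, fell by 2.85 ± 0.29. The receptor gene NPR1 was not called, at -0.21, and NPR3 fell by 0.35 ± 0.10. Without wild-type replicate 3 or mutant replicate 3, 4 of the 7 were called.

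Of 14 systemic resistance and pathogenesis-related genes, 6 fell and none rose (42.9% called against 7.54% of all genes). All 14 had a negative log2 fold change, and the median was -1.20. FMO1, which makes the mobile signal N-hydroxypipecolic acid, was at 3.33, 5.88 and 6.49 CPM in the wild type and 0.82, 1.21 and 1.27 CPM in exa1-1 (log2 fold change -2.24 ± 0.28, edgeR adjusted p = 5.48e-05). ALD1, an earlier step of that pathway, fell by 1.97 ± 0.54 at a level under 2 CPM, and lost its call in 4 of 6 repeats. PNP-A, a secreted natriuretic peptide, fell by 1.96 ± 0.28, and SAG13, a dehydrogenase induced in senescence and defence, by 2.34 ± 0.26. ACD6, an ankyrin-repeat regulator of salicylic acid, was at 43.4, 78.3 and 63.8 CPM against 27.9, 46.3 and 20.3 CPM, and LURP1 at 21.0, 43.5 and 55.6 CPM against 9.19, 25.5 and 11.6 CPM. The groups overlapped in both and neither passed the threshold, with adjusted p = 0.073 and 0.082. The number of falls called ranged from 4, without wild-type replicate 3 or mutant replicate 1 or 3, to 10.

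The camalexin list had the lowest median of the 30 lists of pathway genes, -1.62. In it 10 of 13 genes were lower and none higher (76.9% called against 7.54% of all genes). The lists were chosen with earlier results of these data known, so their order and counts are descriptive and were not tested. CYP79B2, which turns tryptophan into indole acetaldoxime, fell by 0.49 ± 0.13 from a level of 41.1, 46.5 and 54.3 CPM, and its paralog CYP79B3 was not called (0.10). CYP71A12 and CYP71A13, which share 90.4% of coding bases and act on the acetaldoxime, fell by 2.81 ± 0.23 and 2.67 ± 0.51. PAD3, the last step, fell by 2.09 ± 0.20, with 9.95, 16.6 and 16.5 CPM in the wild type and 2.77, 3.74 and 3.54 CPM in exa1-1. GSTF6, a glutathione transferase of the pathway, fell by 1.11 ± 0.12, from 44.9, 55.2 and 65.9 CPM to 22.7, 26.8 and 27.5 CPM, and GSTU4 by 1.62 ± 0.22. CYP82C2, which makes a related indole compound, fell by 3.43 ± 0.65 from 1.47, 1.74 and 1.59 CPM to 0.16, 0 and 0.26 CPM. WRKY33, a transcription factor that drives the pathway, fell by 0.40 ± 0.10, and NAC042, another of its regulators, by 1.82 ± 0.33. Between 8 and 10 falls were called with a library left out, the fewest without wild-type replicate 2 or mutant replicate 2.

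**Figure D2:**
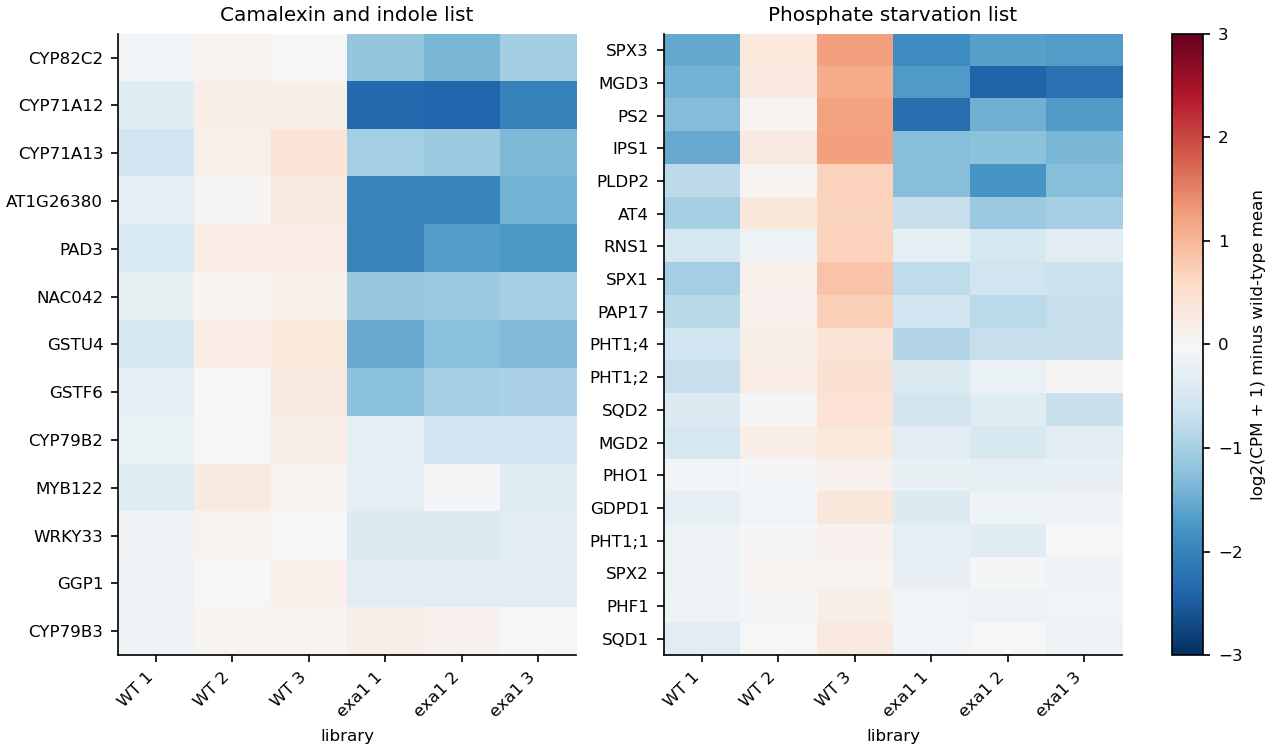
Level of every tested member of the camalexin list and of the phosphate starvation list in each library, as log2(CPM + 1) minus the wild-type mean, with blue for lower and red for higher. For 11 of the 13 camalexin genes all mutant libraries lie below all wild-type libraries, as for 15.5% of all genes tested, and CYP79B3 and MYB122 overlap. The phosphate genes differ among the wild-type libraries, with replicate 1 near the mutant and replicate 3 highest.

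AT1G26390, a FAD-binding oxidase of the berberine family without a symbol, had the largest fall of any gene above 5 CPM. It was at 25.3, 25.7 and 33.3 CPM in the wild type and 2.45, 2.37 and 2.17 CPM in exa1-1, a log2 fold change of -3.59 ± 0.17 (edgeR adjusted p = 2.98e-11). It was -3.30 on MS medium and -2.56 at 39 °C. AT1G26380, its neighbour on chromosome 1, which is a member of the camalexin list and shares 87.6% of aligned coding bases with it, fell by 2.18 ± 0.23. The family was then counted as a whole, a choice made after the values were seen. Of 27 annotated loci 18 were tested, 9 fell and none rose, with a median of -0.37. Over all genes tested 4.26% fell. AT1G26410 fell from 1.57, 2.56 and 2.38 CPM to 0.33, 0.15 and 0.26 CPM (edgeR adjusted p = 0.000656). AT1G26420 fell by 1.05 ± 0.31, and AT1G30720, in another group of neighbours on the same chromosome, by 0.74 ± 0.11 from 24.0, 23.0 and 23.0 CPM to 13.1, 13.2 and 15.6 CPM. The tested loci on chromosome 5 were not called, with log2 fold changes of -0.26 to 0.23.

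Further named falls were 2 enzymes and a transporter. CHI, a chitinase, was at 23.57, 26.2 and 31.2 CPM in the wild type and 5.33, 5.86 and 7.50 CPM in exa1-1 (log2 fold change -2.12 ± 0.17, edgeR adjusted p = 2.52e-07). PER4, a secreted peroxidase, fell by 1.99 ± 0.28, from 4.85, 4.86 and 6.16 CPM to 1.41, 1.16 and 1.43 CPM. ABCG40, an importer of abscisic acid of the pleiotropic drug resistance type, fell by 2.26 ± 0.54, from 3.68, 8.23 and 12.9 CPM to 2.12, 0.96 and 2.11 CPM. Its wild-type libraries differed among themselves by more than 3-fold, and the call was lost in 5 of 6 repeats with a library left out, holding only without wild-type replicate 1.

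Of 16 pattern receptor and immune kinase genes 3 fell (18.75% called against 7.54% of all genes), with a median of -0.16. FLS2, the flagellin receptor, was at 33.9, 32.8 and 33.4 CPM in the wild type and 23.8, 21.9 and 26.3 CPM in exa1-1 (log2 fold change -0.48 ± 0.13, edgeR adjusted p = 0.022). FRK1, a kinase induced by flagellin, fell by 2.15 ± 0.46, and WAK1, a wall-associated kinase, fell by 0.89 ± 0.24 with overlapping libraries. The co-receptor BAK1 and the kinase BIK1 were not called, at -0.06 and 0.01. FLS2 and WAK1 lost their calls in 5 and 4 of 6 repeats with a library left out. Of 25 NLR receptor and helper genes, the intracellular immune receptors, ADR1 rose by 0.43 ± 0.13 and SNC1 fell by 0.40 ± 0.12, with a median of 0.04. The called share of 8% is close to the 7.54% of all genes in this fit, and both calls were lost in 5 of 6 repeats. Counts moved with the fit: 2 rose and 6 fell with the 6 libraries alone, and 3 and 8 with all 24 libraries. The 12 unstressed libraries gave 4 and 9, DESeq2 1 and 1, and limma-trend 0 and 0. Over all genes these fits called 3216, 3924, 5219, 2033 and 1729. Of 24 early stress transcription factors 4 fell (16.7% called against 7.54% of all genes), with a median of -0.36 and 23 negative log2 fold changes. STZ, a zinc-finger repressor, fell by 1.00 ± 0.16, from 5.68, 7.47 and 7.61 CPM to 3.75, 3.63 and 3.01 CPM, and WRKY40, WRKY18 and ERF6 fell by 0.91 ± 0.22, 0.39 ± 0.10 and 0.48 ± 0.15. Only STZ among these kept its call with any library left out.

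**Figure D3:**
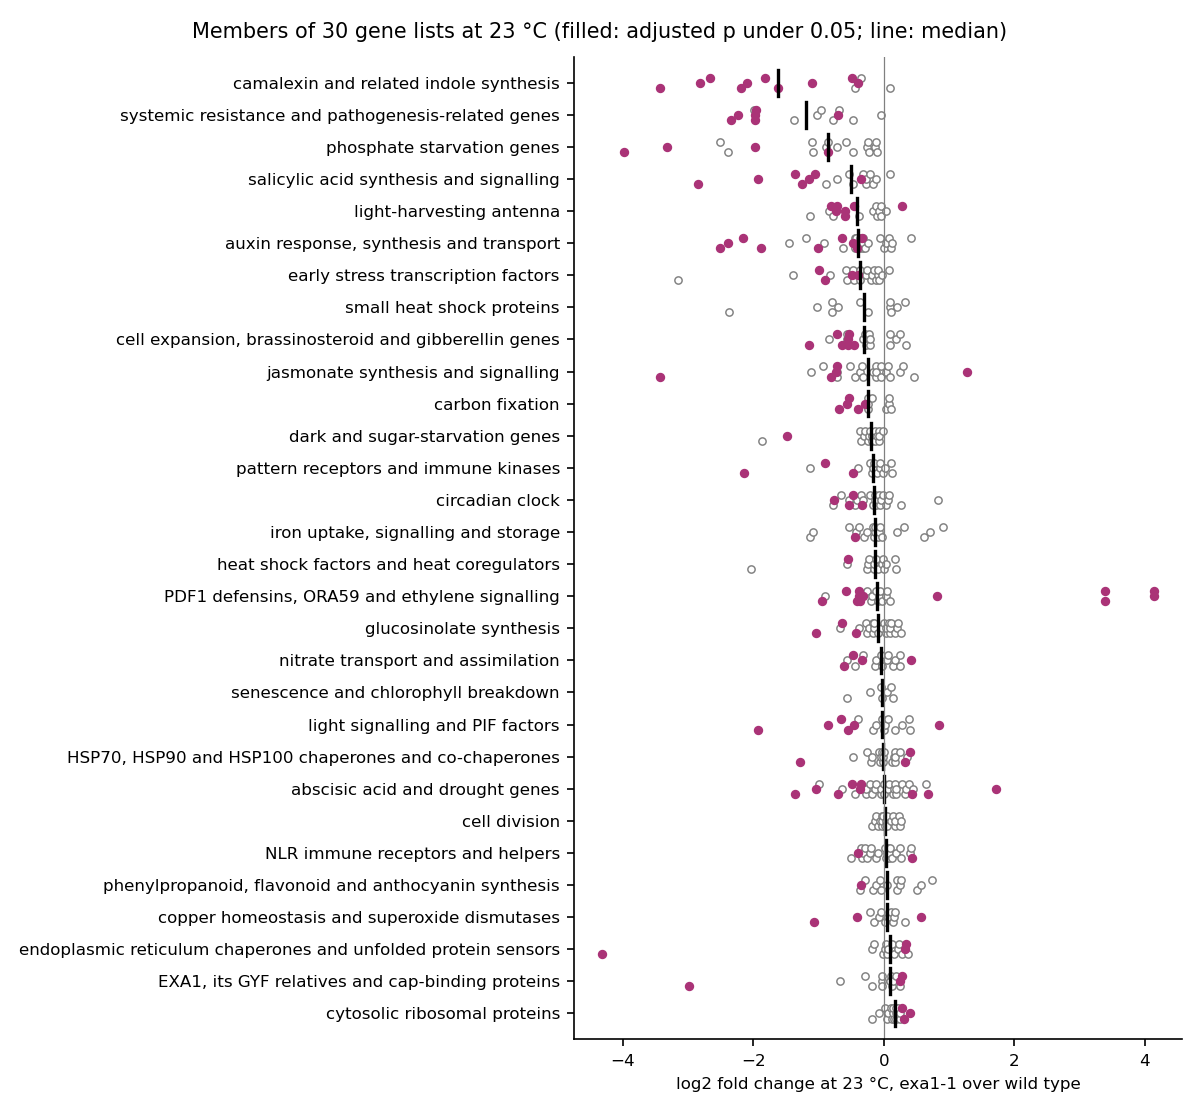
Log2 fold change at 23 °C of the tested members of 30 gene lists, 1 row per list ordered by median, with filled points for genes with adjusted p under 0.05, open points for the others and a black line at the list median. The medians run from -1.62 for camalexin to 0.17 for cytosolic ribosomal proteins, and the filled points of the defensin list lie on both sides of 0. The lists were chosen with earlier results of these data known, so the order is descriptive.

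Of 19 phosphate starvation genes tested 4 fell, and 6 had all mutant libraries below all wild-type libraries, as did 15.5% of all genes tested. All 19 had a negative log2 fold change, and the median was -0.86, against 0.002 over all genes. MGD3, which makes galactolipid when phosphate is short, was at 2.11, 9.05 and 17.0 CPM in the wild type and 1.52, 0.56 and 0.74 CPM in exa1-1. SPX3, a phosphate sensor, was at 0.44, 4.19 and 8.92 CPM against 0.16, 0.35 and 0.32 CPM. PLDP2, a phospholipase D that releases phosphate from membrane lipid, was at 3.48, 7.16 and 11.3 CPM against 2.17, 1.26 and 2.17 CPM. In these genes wild-type replicate 1 lay close to the mutant and replicate 3 was the highest, although the groups did not overlap. The log2 fold changes were -3.33 ± 0.71 for MGD3, -3.98 ± 0.95 for SPX3, -1.98 ± 0.34 for PLDP2 and -0.86 ± 0.20 for the transporter PHT1;4. PEPC1, a phosphatase outside the list and among the 12 largest falls, had the same order, at 2.74, 8.90 and 18.1 CPM against 1.90, 1.72 and 2.01 CPM (log2 fold change -2.40 ± 0.53), and lost its call without mutant replicate 1, 2 or 3. Without wild-type replicate 1 MGD3 was at -3.80 and SPX3 at -4.51, and 11 list genes were called, while without wild-type replicate 3 they were at -2.57 and -3.01. The fewest called was 1, without mutant replicate 2. On MS medium the list median was 0.02 with 1 gene lower. ARD3, an enzyme of methionine salvage, had its wild-type libraries in that order too, at 4.31, 7.57 and 17.5 CPM against 1.09, 1.67 and 0.79 CPM in exa1-1, and fell by 3.04 ± 0.54.

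Of 18 light-harvesting genes 6 fell and 1 rose (38.9% called against 7.54% of all genes), with a median of -0.42. LHCA4, an antenna protein of photosystem I, was at 955, 908 and 774 CPM in the wild type and 560, 581 and 599 CPM in exa1-1 (log2 fold change -0.60 ± 0.10, edgeR adjusted p = 0.0011). LHCB1.2, of the main antenna of photosystem II, fell by 0.46 ± 0.08, and LHCB1.4 by 0.59 ± 0.14 from 1482, 1716 and 1333 CPM to 1004, 783 and 1217 CPM. LHCB4.1, a minor antenna protein, was the rise, at 2233, 2191 and 1965 CPM against 2538, 2577 and 2618 CPM (0.28 ± 0.08), a call that was lost with any library left out. Of 13 carbon fixation genes 5 fell (38.5% called against 7.54% of all genes), with a median of -0.24. RCA, the activase of Rubisco, fell by 0.53 ± 0.11, from 1547, 1851 and 1651 CPM to 1153, 1340 and 998 CPM, and FBA1, an aldolase of the Calvin cycle, by 0.57 ± 0.10. RBCS1B and RBCS2B, small subunits of Rubisco, fell by 0.69 ± 0.16 and 0.40 ± 0.11. The carbon fixation count went down to 2, RCA and FBA1 being kept, without wild-type replicate 2 or mutant replicate 1 or 3.

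Of 33 auxin genes 9 fell and none rose (27.3% called against 7.54% of all genes), with a median of -0.39. IAA7, a repressor of auxin response, was at 182, 178 and 178 CPM in the wild type and 113, 111 and 122 CPM in exa1-1 (log2 fold change -0.64 ± 0.09, edgeR adjusted p = 0.00015). IAA29 and IAA19, repressors induced by auxin and by phytochrome-interacting factors, fell by 2.505 ± 0.421 and 1.00 ± 0.22. SAUR19 and SAUR22, small auxin-induced genes of cell elongation, fell by 2.16 ± 0.49 and 1.88 ± 0.42 at levels below 2 CPM. Of 22 cell expansion, brassinosteroid and gibberellin genes 7 fell and none rose (31.8% called against 7.54% of all genes). XTH4 and XTH24, enzymes that remodel wall xyloglucan, fell by 0.54 ± 0.11 and 0.65 ± 0.14, XTH4 from 502, 405 and 387 CPM to 277, 276 and 334 CPM. TCH4, of the same enzyme family, was at 214, 139 and 128 CPM against 95.1, 87.1 and 110 CPM and fell by 0.72 ± 0.15. GASA6, a gibberellin-induced peptide, fell by 0.54 ± 0.13, and BR6OX2, the last enzyme of brassinolide synthesis, by 0.54 ± 0.13. Of the 20 cell division genes tested by edgeR none passed the threshold, and their log2 fold changes ran from -0.19 to 0.26. At an unadjusted p under 0.05 there was 1, and DESeq2 and limma also called 0. Without mutant replicate 2, 4 of the 9 auxin genes were called. Of the expansion genes 4 were called without wild-type replicate 3 or mutant replicate 1 or 2.

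In light signalling 5 of 17 genes fell and 1 rose (35.3% called against 7.54% of all genes), with a median of -0.02. HY5, a transcription factor that promotes light responses, rose by 0.85 ± 0.15, from 18.5, 20.3 and 23.0 CPM to 41.2, 39.98 and 30.2 CPM. PIF3, a phytochrome-interacting factor that acts against light responses, fell by 0.55 ± 0.10, from 33.3, 39.7 and 36.7 CPM to 26.53, 24.3 and 24.2 CPM. PIF5 fell by 0.46 ± 0.14 with a gap of less than 1 CPM between groups, and its call was lost in 5 of 6 repeats. The falls of the list numbered 3 without wild-type replicate 1 or 2 or mutant replicate 1 or 2. HFR1 and PIL1, targets of these factors, fell by 0.65 ± 0.18 and 1.93 ± 0.42. TZP, a zinc-knuckle protein of phytochrome signalling, rose by 1.11 ± 0.20, from 22.5, 27.6 and 25.8 CPM to 56.5, 58.3 and 49.2 CPM. Of 26 clock genes 4 fell and none rose (15.4% called against 7.54% of all genes). GI, an evening gene, fell by 0.76 ± 0.14, from 10.7, 16.9 and 13.6 CPM to 8.21, 7.27 and 8.82 CPM, and PRR7, RVE1 and LUX fell by 0.47 ± 0.11, 0.54 ± 0.13 and 0.34 ± 0.10. Without mutant replicate 1 or 2, 1 of the 4 was called.

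The other named rises were regulators and enzymes at low to moderate levels. LOB, a transcription factor of organ boundaries, was at 4.36, 4.96 and 4.67 CPM in the wild type and 12.4, 11.7 and 11.5 CPM in exa1-1 (log2 fold change 1.34 ± 0.18, edgeR adjusted p = 0.00012). LBD25, of the same family, rose by 0.86 ± 0.19. RLP19, a receptor-like protein, rose by 1.104 ± 0.129, from 19.8, 20.0 and 15.8 CPM to 40.4, 46.5 and 32.5 CPM. AACT1, which RefSeq names as an anthocyanin acyltransferase, rose by 1.53 ± 0.26, and BGLU45, a glucosidase that releases lignin precursors, by 0.94 ± 0.20. The LBD25 call was lost without wild-type replicate 2 or mutant replicate 2, and that of BGLU45 without mutant replicate 1. Of 15 flavonoid and phenylpropanoid genes tested, 1, PAL2, fell and none rose, a share of 6.67% against 7.54% of all genes, and the PAL2 call was lost in 5 of 6 repeats.

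**Figure D4:**
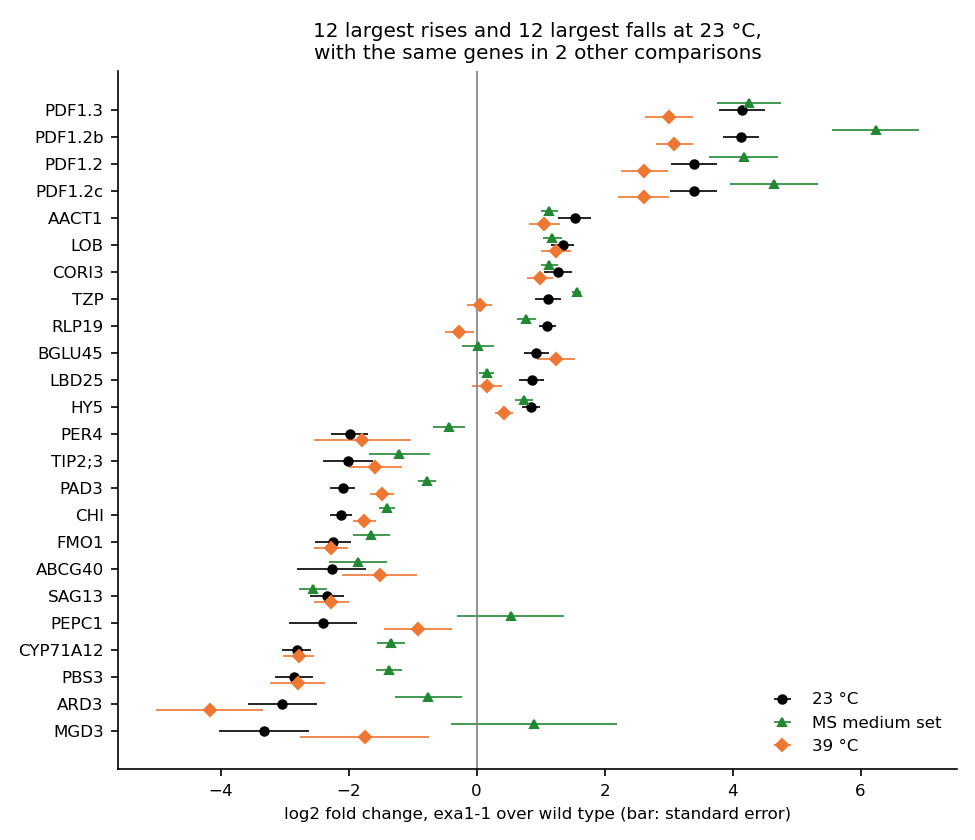
Log2 fold change of exa1-1 over the wild type, with standard error bars, for the 12 largest rises and 12 largest falls at 23 °C that had a symbol, shown as black circles, and for the same genes on MS medium as green triangles and at 39 °C as orange diamonds. The PDF1 genes are above 2 in all 3 comparisons. MGD3 is at -3.33 at 23 °C and 0.90 on MS medium.

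Of 21 HSP70, HSP90 and HSP100 genes 2 rose and 1 fell at 23 °C, 14.3% against 7.54% of all genes. The fall was HSP70-2, a cytosolic chaperone, at 12.9, 16.7 and 19.5 CPM in the wild type and 7.23, 6.36 and 6.49 CPM in exa1-1 (log2 fold change -1.29 ± 0.13, edgeR adjusted p = 4.27e-06), a call kept with any library left out. HSP90.5, a chloroplast chaperone, rose by 0.32 ± 0.09 and lost its call in 4 of 6 repeats. HSP70-1, another cytosolic chaperone, was at 1798, 2115 and 1907 CPM in the wild type and 2577, 2706 and 2362 CPM in exa1-1 (log2 fold change 0.39 ± 0.09, edgeR adjusted p = 0.0085), a call lost without mutant replicate 2. On MS medium HSP70-1 fell by 0.30, and that difference between sets was called. Of 12 small heat shock protein genes none passed edgeR's test, with a median of -0.31, while 3 had an unadjusted p under 0.05, DESeq2 called 1 lower and limma 2 lower. Of 16 heat shock factor and coregulator genes 1, GOLS1, a galactinol synthase, fell by 0.55 ± 0.09, a share of 6.25% against 7.54% of all genes. Of 16 endoplasmic reticulum genes 2 rose and 1 fell (18.75% called against 7.54% of all genes), and 12 had a positive log2 fold change. PDIL1-1, a disulfide isomerase, rose by 0.32 ± 0.09 and SDF2 by 0.33 ± 0.10, calls lost in 6 and 5 of 6 repeats. BIP3, a stress-induced chaperone, fell from 0.64, 0.56 and 0.33 CPM to 0.05, 0 and 0 CPM, and was not called by limma-trend on log2(FPKM + 1) (adjusted p = 0.117).

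Of 35 abscisic acid and drought genes 3 rose and 6 fell (25.7% called against 7.54% of all genes), with a median of 0.00. The largest change was in COR15A, which rose by 1.71 (edgeR adjusted p = 0.00318), and HAI1 fell by 1.03. Both calls were kept with any library left out. RD22, a drought-induced gene, rose by 0.68 ± 0.09, from 48.6, 50.3 and 52.5 CPM to 79.6, 88.2 and 75.0 CPM. COR47, a dehydrin, fell by 0.70 ± 0.10, from 280, 292 and 296 CPM to 187, 160 and 188 CPM, and NCED3, the step that limits abscisic acid synthesis, fell by 1.37 ± 0.34 at levels below 2 CPM. Without wild-type replicate 2 or mutant replicate 2, 3 of these falls were called. Of 17 nitrate genes 3 fell and 1 rose. NRT1.5, a transporter that loads nitrate into the xylem, fell by 0.61 ± 0.11, from 486, 485 and 430 CPM to 321, 272 and 324 CPM. UPM1, which makes siroheme for nitrite reductase, rose by 0.42 ± 0.09. Without mutant replicate 2 the nitrate falls numbered 1. Of 14 copper genes 2 fell and 1 rose (21.4% called against 7.54% of all genes). FRO4, a metal reductase, was lower by 1.07 ± 0.15 and CSD2, a chloroplast superoxide dismutase, higher by 0.57 ± 0.12. Of 21 iron genes 1, OPT3, fell, a share of 4.76% against 7.54% of all genes, and the call was lost in 5 of 6 repeats. Of 18 dark and sugar-starvation genes 1, DIN2, a glucosidase, fell by 1.48 ± 0.17, from 20.8, 15.1 and 14.7 CPM to 5.82, 6.26 and 6.07 CPM. The called share of this list was 5.56% against 7.54% of all genes, and all 18 had a negative log2 fold change. Of 25 glucosinolate genes 3 fell (12% called against 7.54% of all genes), and none did without wild-type replicate 2 or 3 or mutant replicate 2. Of 7 senescence genes none passed edgeR's test, with 2 at an unadjusted p under 0.05 and 0 called by DESeq2 or limma.

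Markers of root, leaf and vascular tissue were present in every library, as the whole-seedling label says. The summed level of 10 root markers was 1723 to 1807 CPM in the wild type and 1567 to 1810 CPM in exa1-1, and 1 of them, TIP2;3, an aquaporin of the vacuole membrane, fell by 2.01 ± 0.40, from 43.2, 21.4 and 20.0 CPM to 6.74, 5.25 and 9.03 CPM, and lost its call without mutant replicate 1 or 2. The sum of 10 leaf mesophyll and stomatal markers was 2615 to 3180 CPM against 2086 to 2809 CPM, with CA1, a carbonic anhydrase, called lower, a call lost in 5 of 6 repeats. The sum of 6 vascular markers was 164 to 185 CPM in the wild type and 114 to 128 CPM in exa1-1, without overlap. A large part of this sum was SUC2. Taken singly, 3 of the 6 markers had all mutant libraries below all wild-type libraries, against 15.5% of all genes tested. SUC2, the sucrose transporter of phloem companion cells, fell by 0.85 ± 0.11, from 81.5, 89.8 and 106 CPM to 56.0, 49.0 and 48.8 CPM, and XCP1, a xylem protease, by 0.52 ± 0.15, a call lost with any library left out. The 4 seed storage markers tested summed to 0.233 to 3.99 CPM against 4.64 to 31.8 CPM, the highest in mutant replicate 3, where CRC, a storage protein, was at 15.3 CPM. None passed edgeR's test, 3 had an unadjusted p under 0.05, and DESeq2 and limma called 0. Of the floral markers AG, AP3 and AP1 were too low to test, PI rose by 1.17 ± 0.33 and SEP3 fell by 0.81 ± 0.19, calls lost in 5 and 2 of 6 repeats. The part of tissue composition in the differences above was not tested.

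The 23 °C difference was set beside the genotype difference on MS medium, which shares no library with it. Among 1590 genes called at 23 °C and tested on MS medium 87.5% had the same sign there, against 64.9% of all genes tested in both, and 728 were also called with that sign, while 17 were called with the opposite sign. On MS medium 17.5% of genes tested were called, 7.17% higher and 10.4% lower. Across 20921 genes the log2 fold changes correlated at a Pearson r of 0.545, over genes that share the libraries of each set. Set against each other by an interaction test, 1559 genes (7.24%) had genotype differences that differed between 23 °C and MS medium, 4.71% with the higher and 2.53% with the lower log2 value at 23 °C, among them 544 of those called at 23 °C. Several falls were deeper at 23 °C. PAD3 was at -2.09 at 23 °C and -0.78 on MS medium, CYP71A12 at -2.81 and -1.34, PBS3 at -2.85 and -1.37, and GSTF6 at -1.11 and -0.05, each with a called difference between sets. Some auxin and growth genes had the deeper fall on MS medium. IAA2 was at -0.41 and -1.15, EXPA8, an expansin, at -1.15 and -2.17, and GASA6 at -0.54 and -1.66, again with called differences. The 23 °C and MS libraries belong to separate sets, so the condition and the set cannot be told apart. The number of called differences ranged from 954, without mutant MS replicate 2, to 2292, without wild-type 23 °C replicate 1, and was also below 1000 without mutant MS replicate 1 or 3 or wild-type MS replicate 2 or 3.

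**Figure D5:**
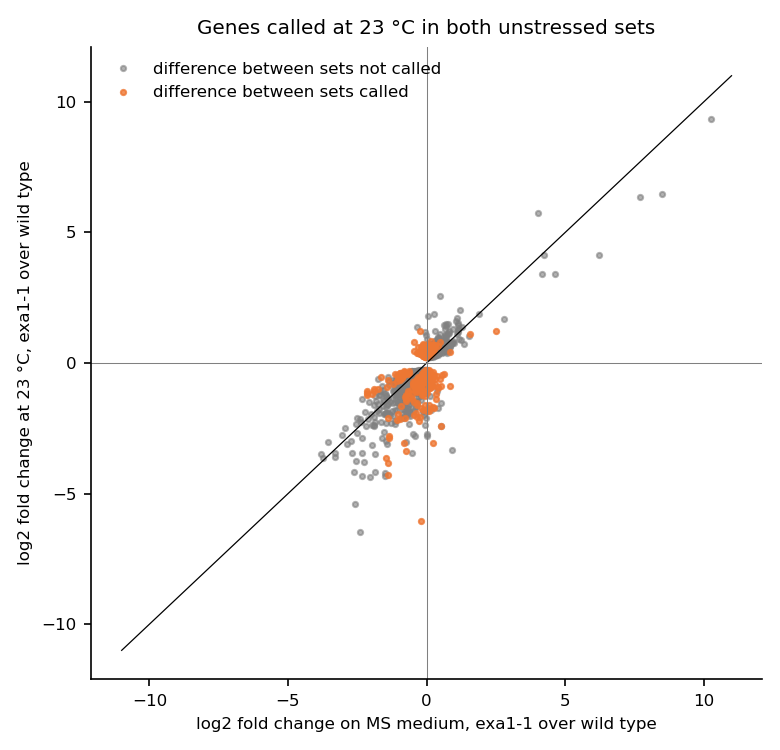
Log2 fold change of exa1-1 over the wild type on MS medium (x axis) and at 23 °C (y axis) for the 1590 genes called at 23 °C and tested in both, with the line of equal change. Orange points are the 544 genes whose difference between the sets was called, and 87.5% of all points have the same sign on both axes.

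At 39 °C, 86.5% of the 1598 genes called at 23 °C had the same sign, against 61.8% of all genes tested, and the log2 fold changes correlated at a Pearson r of 0.405 across 21196 genes. Of the 1598, 580 were also called with it and 19 with the opposite sign, where 15.5% of all genes were called, 7.45% higher and 8.03% lower. The genotype differences at 23 and 39 °C differed for 347 genes (1.64%), 0.788% higher and 0.849% lower at 23 °C, 86 of them among those called at 23 °C. XPL1, a methyltransferase of phosphocholine synthesis, fell by 0.42 at 23 °C, with means of 67.6 CPM in the wild type and 50.5 CPM in exa1-1, and by 2.84 at 39 °C. RLP19 was at 1.104 at 23 °C and -0.27 at 39 °C, a called difference. PR2, a glucanase, fell by 1.97 at 23 °C and by 4.47 at 39 °C. This count rested on single libraries, with 1481 genes without wild-type 39 °C replicate 3, 610 without mutant 39 °C replicate 1 and 85 to 253 without any other library of the heat set.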

How the data were processed

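Gene-level read counts deposited by the authors were used as they stand. Alignment with HISAT2 2.0.4 and counting with HTSeq 0.6.1p1, on build TAIR10, are listed per the submitters' processing notes. The FPKM values the authors deposited beside them served for 1 alternative, as log2(FPKM + 1). The strand setting of the counting is not given in the sources used here. Groups came from the labels. The 12 libraries of the heat set were fitted together with edgeR 4.0.16 in R 4.3.3 (filterByExpr, TMM, robust quasi-likelihood test, Benjamini-Hochberg adjustment, threshold 0.05). Differences from MS medium were fitted on the 12 unstressed libraries and those from 39 °C on the heat set. The fit was tested on simulated data. The text names EXA1, the 12 largest rises and falls with a symbol (called, at least 5 CPM, no overlap), list members, and 5 genes in each direction per difference of differences. Loci without a symbol and the berberine family were added after their values were seen. Members and lists were chosen with earlier results of these data known. Alternatives were DESeq2 1.42.0, limma 3.58.1, other scaling, filters and sample sets, a replicate block, and each library left out. Sequences are from RefSeq, build TAIR10.1.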

Additional observations from a re-analysis of the deposited data

Results flagged for a closer look

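Results below are listed because the genotype difference at 23 °C differed from that in another condition by edgeR's interaction test. Against MS medium this held for 1559 genes. The 23 °C difference was higher, on the log2 scale, by 2.15 for RTFL21, 1.59 for GH3.3, 1.58 for ESE3, 1.57 for MAKR6, 1.54 for ATSDI1 and 0.71 for LBD25. It was lower for JRG21 (-2.20), PR5 (-1.64), PER4 (-1.55), NLM1 (-1.54) and PP2-A3 (-1.505). The same held for PBS3 (-1.48), CYP71A12 (-1.46), PAD3 (-1.31), AT1G73600 (-1.24), CHI (-0.71) and TZP (-0.45). A lower value here is not always a fall. AT1G73600 rose by 1.24 at 23 °C and 2.49 on MS medium, and TZP by 1.11 and 1.56. In the fit of the unstressed libraries PR5 was at -0.47 at 23 °C and 1.17 on MS medium, NLM1 at -0.10 and 1.45, and PP2-A3 at -0.69 and 0.81. ESE3 had the opposite signs, at 0.65 and -0.93.

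Against 39 °C the difference held for 347 genes. The 23 °C value was higher by 3.25 for MAKR6, 2.53 for NUDT6, 2.51 for PR2, 2.42 for XPL1, 1.502 for HB30 and 1.38 for RLP19. It was lower for RLP21 (-4.98), MLO7 (-2.27), XRCC3 (-1.67), BGLU33 (-1.39) and ABCC7 (-1.32). RLP21 averaged 0.21 CPM in the wild type and 0 in exa1-1 at 23 °C.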

How the results depend on the processing

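The counts of called genes differed with the set of libraries fitted. At 23 °C, 3924 genes (1817 higher, 2107 lower) were called with all 24 libraries in 1 fit, 3216 (1459 and 1757) with the 6 libraries alone and 5219 (2683 and 2536) with the 12 unstressed libraries. With each library left out, 759 to 1319 were called (297 to 532 higher, 442 to 787 lower). DESeq2 called 2033 and limma-trend 1729. For the difference from MS medium, all 24 libraries gave 682 (448 and 234), limma-trend gave 628 higher, and leaving out a library gave 954 to 2292 (608 to 1416 higher, 333 to 876 lower). For the difference from 39 °C, DESeq2 gave 834 (319 and 515), all 24 libraries 2154 (875 and 1279), limma-trend 153 (61 and 92), and leaving out a library 85 to 1481 (43 to 530 higher, 42 to 951 lower). JRG21's difference from MS medium changed sign with limma-trend on log2(FPKM + 1), to 0.26. The cause was not tested. With the replicate number as a block 1486 genes were called at 23 °C, 1545 differed from MS medium and 299 from 39 °C. Same-numbered libraries deviated together with correlations of 0.0202, -0.00361 and 0.00494, so the numbers were not taken as pairs.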
